A study of Sus scrofa with 20 samples.

Results

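The simple epithelial keratins KRT7, KRT8, KRT18, KRT19 and KRT20 were followed across pig cells sorted from the biliary tree and from the liver. The genes were taken by name from a table of 25764 genes, and 4 of the 5 names had a row. KRT19 had no row by that name and was not analysed here. In brief, KRT20 was measured in all 5 libraries of porcine biliary tree stem cells (pBTSCs) at 120 to 1494 normalized counts and in no liver library above 5.41, KRT8 and KRT18 were high in every library of every sort, and the balance of KRT8 to KRT18 separated pBTSCs from all 15 liver libraries.

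Poly(A) RNA of 20 cell preparations was sequenced. The 5 pBTSC libraries (S2, S7, S11, S15 and S20) came from gallbladder by their labels, and from the gallbladder and extrahepatic ducts of newborn piglets by the study's supplement. That supplement lists S2, S7 and S11 as H2B-GFP piglets, offspring that carry a histone H2B-eGFP transgene inserted at the beta-actin locus, and S15 and S20 as wild-type piglets. The labels do not state the line, so the pBTSC libraries were compared by label number only, and line and number range cannot be told apart. The study defines biliary tree stem cells as CD45-/EpCAM+ cells. By its methods, immunoselected stem/progenitor cells for the genetic studies were kept for hours in serum-free medium on low-attachment dishes. There they formed organoids together with early mesenchymal cells, among them precursors of endothelial and stellate cells. The methods do not tie this step to single libraries. The liver libraries were 4 of CD45-/EpCAM+ cells (S4, S9, S13, S19), 2 of CD45-/EpCAM- cells (S5, S14), 5 of CD45+ cells (S3, S8, S12, S18, S23), 2 of CD31+ cells (S16, S21) and 2 of CD146+ cells (S17, S22). The line, age and identity of the liver donors were not given for single libraries, and no other treatment was given for any library. In order of label number, each pBTSC library is followed by liver libraries (S2 to S5, S7 to S9, S11 to S14, S15 to S19, S20 to S23). No label says whether libraries of such a run share an animal. All libraries were therefore treated as unpaired, and sharing between pBTSC and liver libraries was not tested. The study's methods name 5 pig donors for its isolated cell types, biliary tree stem cells among them, but tie no liver sort or library to a donor. Whether the libraries of a liver group came from separate animals is therefore unknown, and p-values measure the spread between these libraries, which may be technical in part.

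Keratins form the intermediate filaments of epithelial cells. Each filament is built of pairs of a type II and a type I chain, so that KRT8 or KRT7 (type II) must be joined by KRT18, KRT19 or KRT20 (type I). Hepatocytes are known for the pair KRT8 and KRT18 alone, bile duct cells add KRT7 and KRT19, and KRT20 is best known from the lining of the stomach and the intestine. In the RefSeq gene table of the pig assembly Sscrofa11.1, KRT8 and KRT18 lie next to each other on chromosome 5, and KRT20 lies between KRT23 and KRT12 on chromosome 12. KRT7 is listed on chromosome 5 too, but that table gives its entry as a long non-coding RNA and the other members as protein-coding. The deposited table gives no gene IDs, so what its KRT7 row counted could not be checked.

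Levels are given as normalized counts, that is read counts per gene scaled by the authors to make libraries comparable. They are not divided by gene length, so values are compared between libraries and not between genes. The estimated depth was 21300000 to 77800000 reads in 17 libraries and much lower in the other 3, at 455000 for S22 (CD146+), 801000 for S13 (CD45-/EpCAM+) and 1570000 for S15 (pBTSC). In these shallow libraries 3 reads correspond to 157, 77.1 and 37.7 normalized counts. The study's supplement lists RNA integrity for the pBTSC libraries except S15, lowest in S7 and highest in S20, and for no liver library. The part of RNA quality in the levels and ratios was not tested.

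The 4 sorting genes differed in how far they followed the sorts. EPCAM, the gene of the epithelial surface protein used for sorting, was measured in all 20 libraries, with 884 to 2075 normalized counts in pBTSCs, 1205 to 1779 in CD45-/EpCAM+ cells and 491 to 1090 in CD45-/EpCAM- cells. The EpCAM+ and EpCAM- sorts thus did not overlap, whereas the range in CD45+ cells, 1175 to 2232, overlapped that of the EpCAM+ sort. The EPCAM mean was highest in CD45+ cells, at 1623, against 1496 in CD45-/EpCAM+ cells. PTPRC, which encodes CD45, reached 424 to 2687 in CD45+ cells and 450 to 3027 in CD45-/EpCAM+ cells, so these groups overlapped. By mean, PTPRC ran opposite to the sort labels. It was lowest of the liver sorts in CD45+ cells (1454) and highest in CD45-/EpCAM- cells (2084). PECAM1, which encodes CD31, had its highest liver means in CD31+ (22696) and CD146+ cells (24717), against 6608 to 17939 in the other liver sorts. MCAM, which encodes CD146, had its highest liver mean in CD146+ cells, at 4921. The pBTSC means were 31741 for PECAM1 and 5770 for MCAM. Summed over 10 hepatocyte genes (among them ALB and APOA1), every liver sort lay between 963000 and 2770000 normalized counts, against 27100 to 73300 in pBTSCs. The liver groups are therefore called by their sort labels and not as pure cell types. In these bulk libraries, fewer cells of a type and less RNA per cell cannot be told apart.

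KRT20, the type I keratin of gut lining, was the member that set pBTSCs apart. Its normalized counts were 771 in S2, 120 in S7, 573 in S11, 1494 in S15 and 894 in S20. In the liver it was listed at 0 in 4 of 15 libraries (S5, S13, S14 and S22) and reached at most 5.41. The lowest pBTSC value was 22.3-fold above the highest value listed for any liver library. For the shallow liver libraries S13 and S22, however, a value of 0 allows up to 77.1 and 157 normalized counts (3 reads). The lowest pBTSC value, that of S7, was 1.56 times the first of these floors and 0.769 times the second, so S22 could not be shown to lie below S7.

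The CD31+ libraries held 5.37 (S16) and 5.34 (S21) normalized counts of KRT20. In CD45+ cells it was 3.61 in S3, 3.64 in S8, 1.44 in S12, 1.44 in S18 and 5.41 in S23. It was 3.34 in the CD146+ library S17, and 3.92 in S4, 1.13 in S9 and 0.941 in S19 among CD45-/EpCAM+ cells. Only 7 of the 15 liver libraries exceeded 3 reads, and the highest held about 12 reads, so the order among the liver sorts was not resolved at this depth. By group mean the order was pBTSCs, CD31+, CD45+, CD146+, CD45-/EpCAM+ and CD45-/EpCAM- cells, and pBTSCs were the group whose values did not overlap those of the next one.

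Each liver group was compared with pBTSCs by limma after log2 transformation with 1 added, on 15576 genes with 10 normalized counts or more in 2 or more libraries. Calls required a Benjamini-Hochberg adjusted p under 0.05 together with a log2 difference of more than 1 in size. KRT20 passed the filter of 10 normalized counts through pBTSC libraries alone, since no liver library was listed above 5.41. Its testing therefore rests on the group in which it was high. KRT20 was called higher in pBTSCs against each liver group. The fitted log2 fold change was 8.12 (SE 0.67, adjusted p = 1.08e-07) against CD45-/EpCAM+ cells, 7.27 (SE 0.63, adjusted p = 1.61e-07) against CD45+ cells and 6.54 (SE 0.84, adjusted p = 2.36e-05) against CD31+ cells. Against CD146+ cells it was 8.15 (SE 0.84, adjusted p = 3.09e-06). Both CD45-/EpCAM- libraries were listed at 0, and the pBTSC mean of 770 ± 500 (SD, n = 5) was at least 180-fold higher than the larger of their floors of 3 reads. With liver values so close to 0 the fitted size depends on the pseudocount, and it ranged from 5.30 to 12.52 over all alternatives, each of which kept the call. Without the shallow libraries it was 6.75 against CD146+ cells and 7.42 against CD45-/EpCAM+ cells.

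**Figure D1:**
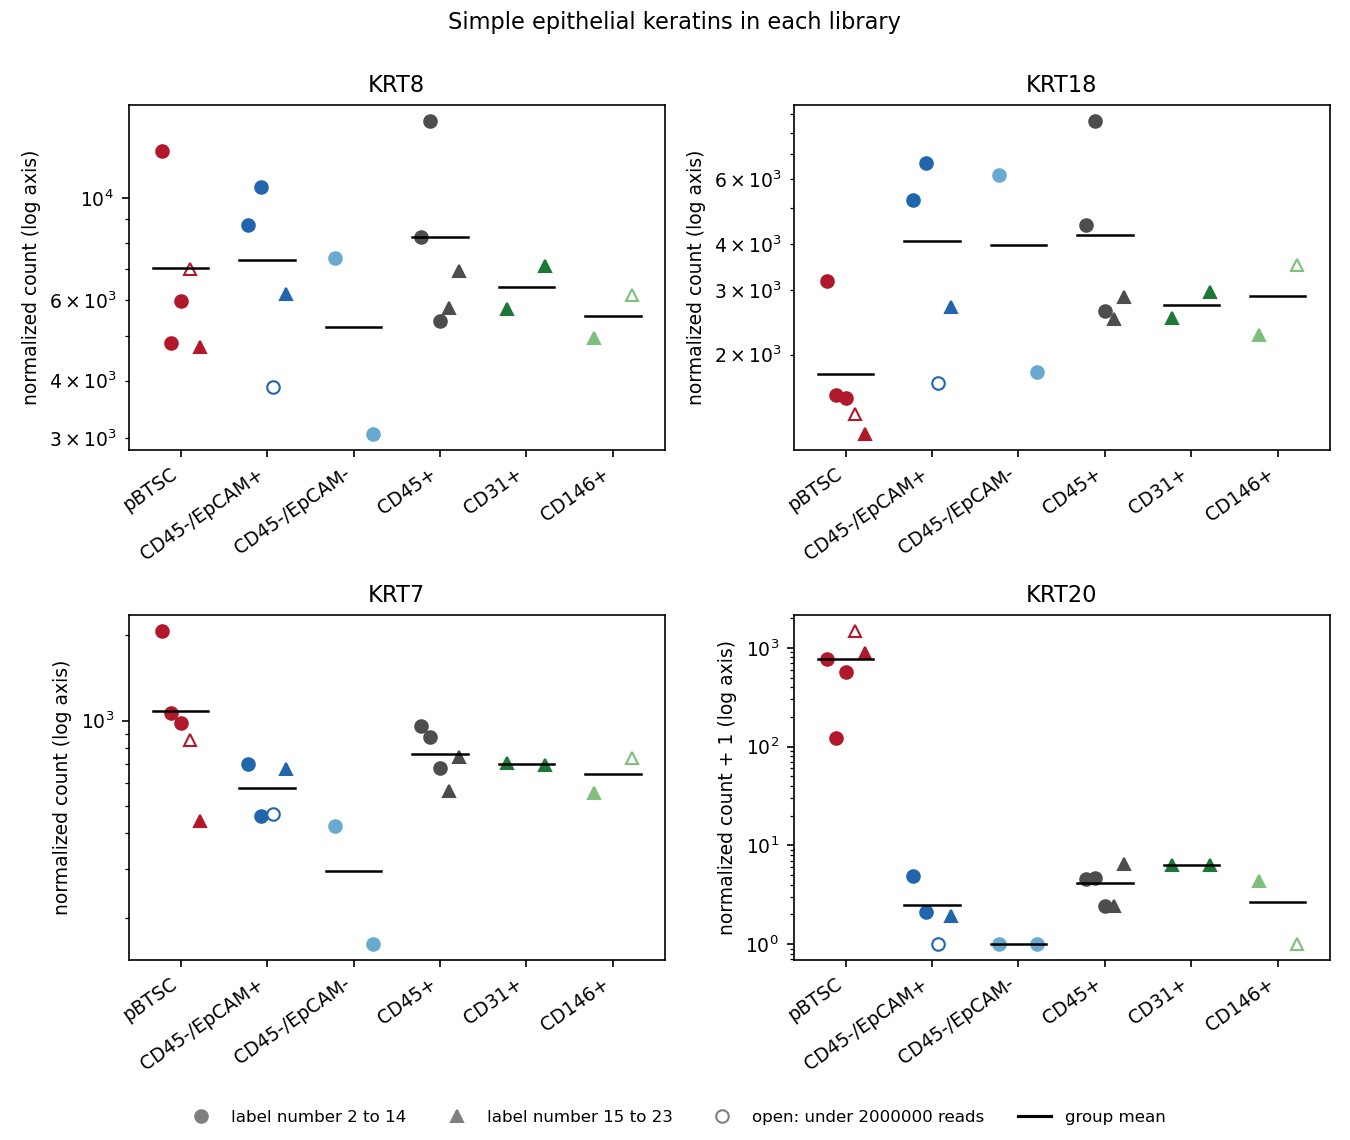
Normalized counts (log axis, with 1 added for KRT20) of KRT8, KRT18, KRT7 and KRT20 in each of the 20 libraries by sort. Circles are libraries labelled 2 to 14, triangles those labelled 15 to 23, open symbols are the 3 shallow libraries and bars are group means. KRT20 lay at 120 to 1494 in pBTSCs and at 0 to 5.41 in the liver, KRT8 overlapped in all groups, 4 of 5 pBTSC libraries had less KRT18 than any liver library, and KRT7 was lowest in the CD45-/EpCAM- library S14.

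Within pBTSCs KRT20 varied 12.4-fold, from S7 to S15. The value of S7 rests on about 466 reads. That of S15, which was shallow, rests on about 119, the fewest of the 5. S15 and S20, the libraries with the higher label numbers, held the 2 highest values, yet the number ranges were not called different (log2 difference of labels 2 to 11 minus labels 15 and 20 of -1.62, limma, unadjusted p = 0.0739, adjusted p = 0.314). Genes of gallbladder and gland lining, a list of 7 that includes the mucins MUC5B and MUC5AC and the crypt gene OLFM4, were also found in pBTSCs. Their summed level was 35600 in S2, 10500 in S7, 24400 in S11, 22200 in S15 and 8370 in S20, against 77.1 to 449 in the liver. Of the 6 genes of that list that were tested, 5 were called higher against CD45-/EpCAM+ cells, and TFF1 was not. Of all genes tested, 25.1% were called there. TFF3 and OLFM4, at most 5.11 and 10.2 in the liver, passed the filter through their pBTSC values. S20 had the least of this list and the second most KRT20, so the level of KRT20 did not follow that sum library by library.

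KRT8, the type II keratin of simple epithelia, did not differ detectably between any of the sorts compared. In pBTSCs it was 12706 in S2, 4828 in S7, 5968 in S11, 7004 in S15 and 4747 in S20. S2 stood well above the other 4, and all 5 values lay within the liver range of 3060 to 14783.

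CD45-/EpCAM+ cells had 8753 normalized counts of KRT8 in S4, 10582 in S9, 3874 in S13 and 6170 in S19. CD45+ cells had 8249 in S3, 14783 in S8, 5399 in S12, 5751 in S18 and 6942 in S23. The CD45+ library S8 was thus the highest of all 20. CD45 marks blood cells, but the PTPRC mean of this sort was the lowest of the liver sorts. KRT8 was 7427 in S5 and 3060 in S14 (CD45-/EpCAM-), 5726 in S16 and 7116 in S21 (CD31+), and 4947 in S17 and 6148 in S22 (CD146+). By mean the order was CD45+, CD45-/EpCAM+, pBTSC, CD31+, CD146+ and CD45-/EpCAM- cells, and every pair of neighbours overlapped.

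The limma log2 fold changes of KRT8 lay between -0.22 (against CD45+ cells) and 0.46 (against CD45-/EpCAM- cells). Against CD45-/EpCAM+ cells the difference was -0.06 with a 95% interval from -0.83 to 0.71, which allows a change of up to about that size in either direction. Its sign turned in several alternatives, none of which gave a call.

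KRT18, the type I partner of KRT8, was lower in most pBTSC libraries. It was 3171 in S2, 1558 in S7, 1526 in S11, 1382 in S15 and 1217 in S20. The liver libraries ranged from 1671 to 8648, so all pBTSC libraries but S2 lay below every liver library.

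In CD45-/EpCAM+ cells KRT18 was 5256 in S4, 6634 in S9, 1671 in S13 and 2687 in S19. In CD45+ cells it was 4504 in S3, 8648 in S8, 2627 in S12, 2494 in S18 and 2876 in S23. Within these sorts the values spanned most of the liver range. CD45-/EpCAM- cells had 6136 in S5 and 1795 in S14, CD31+ cells had 2520 in S16 and 2950 in S21, and CD146+ cells had 2267 in S17 and 3495 in S22. By mean the order was CD45+, CD45-/EpCAM+, CD45-/EpCAM-, CD146+, CD31+ and pBTSC, with overlap between all neighbours.

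KRT18 was called lower in pBTSCs against CD45+ cells alone, with a log2 fold change of -1.17 (SE 0.43, adjusted p = 0.0433, limma). The fitted difference was -1.09 (adjusted p = 0.0672) against CD45-/EpCAM+ cells, -0.997 (adjusted p = 0.153) against CD45-/EpCAM- cells, -0.71 (adjusted p = 0.470) against CD31+ cells and -0.76 (adjusted p = 0.35) against CD146+ cells. All 5 differences were negative. The call against CD45+ cells was lost when the shallow pBTSC library S15 was left out (adjusted p = 0.0624 without the 3 shallow libraries), and also without S7, S11 or S20 of the pBTSCs or S3 or S8 of the CD45+ cells. Against CD45-/EpCAM+ cells the difference passed the threshold without the shallow libraries (-1.38, adjusted p = 0.0426), without S13 alone (-1.45, adjusted p = 0.0207) and without S2 (-1.32, adjusted p = 0.0343). Against CD45-/EpCAM- cells it did so without S14 (-1.88, adjusted p = 0.0343) but was -0.11 (adjusted p = 0.929) without S5, so its size there rests on which of the 2 libraries is kept. Among labels 15 to 23 it was -1.07 (adjusted p = 0.0176) against CD31+ cells and -1.12 (adjusted p = 0.0151) against CD146+ cells.

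**Figure D2:**
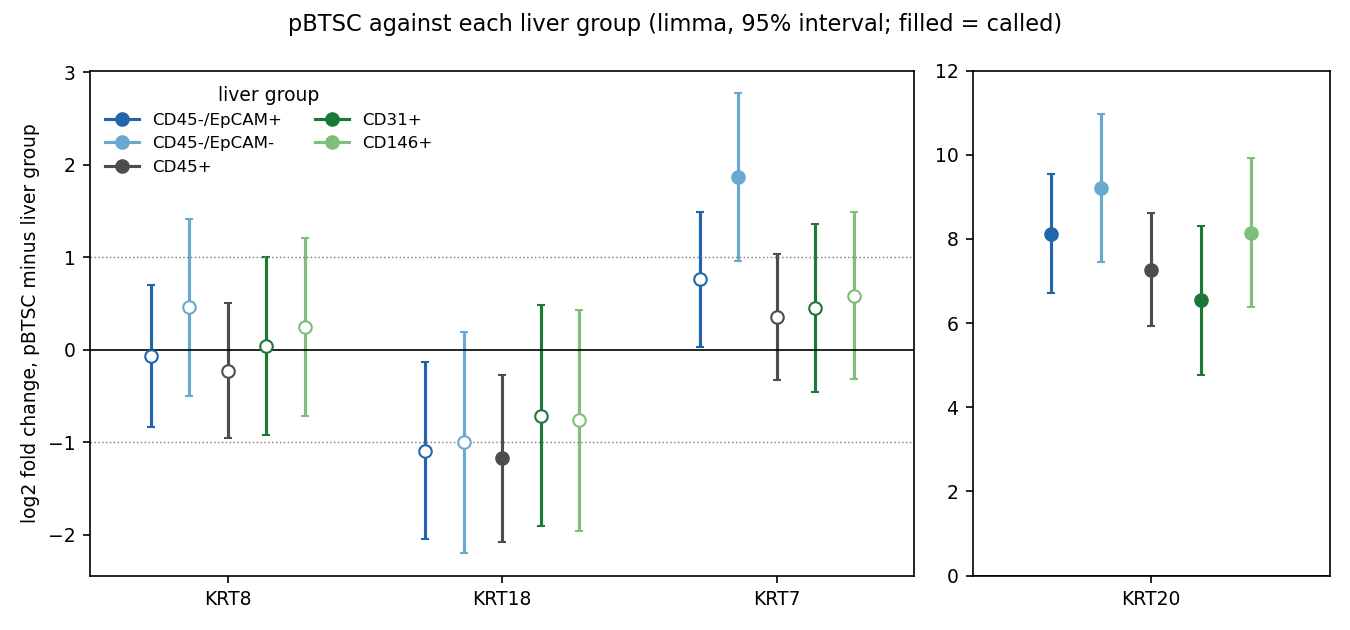
Log2 fold change of pBTSCs minus each liver group for KRT8, KRT18 and KRT7 (left) and KRT20 (right, its own axis), from limma on log2(normalized count + 1), with 95% intervals. Filled points are calls and dotted lines mark a log2 fold change of 1 in either direction. KRT8 points lie between -0.22 and 0.46, KRT18 points between -1.17 and -0.71, and all 5 KRT20 points are filled, from 6.54 to 9.21.

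A ratio of 2 genes within a library does not depend on how the library was scaled. The ratio of KRT8 to KRT18 normalized counts was 4.01 in S2, 3.10 in S7, 3.91 in S11, 5.07 in S15 and 3.90 in S20, with a mean of 4.0 ± 0.70 (SD, n = 5). Over the 15 liver libraries it had a lowest value of 1.21, a median of 2.06 and a highest value of 2.41, with a mean of 1.98 ± 0.37 (SD). The groups did not overlap. S2, which had the most KRT8 and the most KRT18 of the pBTSCs, had a ratio close to the others.

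The mean log2 ratio was higher in pBTSCs by 1.02, that is 2.03-fold (exact two-sided permutation test, p = 0.000129, the smallest these 5 and 15 libraries allow, and 0.000258 after Benjamini-Hochberg adjustment over 2 comparisons). Against CD45-/EpCAM+ cells alone, with ratios of 1.67 in S4, 1.59 in S9, 2.32 in S13 and 2.30 in S19, it was higher by 1.03 (exact permutation p = 0.0159, the smallest for 5 against 4 libraries, adjusted p = 0.0159). Among labels 2 to 14 the log2 difference from the liver was 1.07 (exact permutation p = 0.0121) and among labels 15 to 23 it was 0.999 (exact permutation p = 0.0556, the smallest 2 against 7 libraries can give). Without the shallow libraries it was 0.94. These permutation tests take every library as independent. Where libraries share an animal, which is unknown, the p-values are smaller than the number of animals would allow. Per-length levels were not compared, so the ratio says which group has relatively more KRT8 and not which chain is in excess. Of single genes, 14.4% (CD31+) to 36.6% (CD45-/EpCAM-) were called between pBTSCs and a liver group. Pairs of genes outside the members were not examined, so how often a ratio separates these groups is not known.

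Among the liver groups the ratio was 1.83 in S3, 1.71 in S8, 2.06 in S12, 2.31 in S18 and 2.41 in S23 of the CD45+ cells. CD31+ cells had 2.27 in S16 and 2.41 in S21, and CD146+ cells had 2.18 in S17 and 1.76 in S22. The lowest ratio of all was 1.21 in S5 of the CD45-/EpCAM- cells, whereas S14 of the same sort had 1.70, close to S8 and above S9. Across the 15 liver libraries the log2 levels of KRT8 and KRT18 had a Pearson correlation of 0.92, and of 0.75 over all 20. Libraries of a sort share their source, so this is given as a description.

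**Figure D3:**
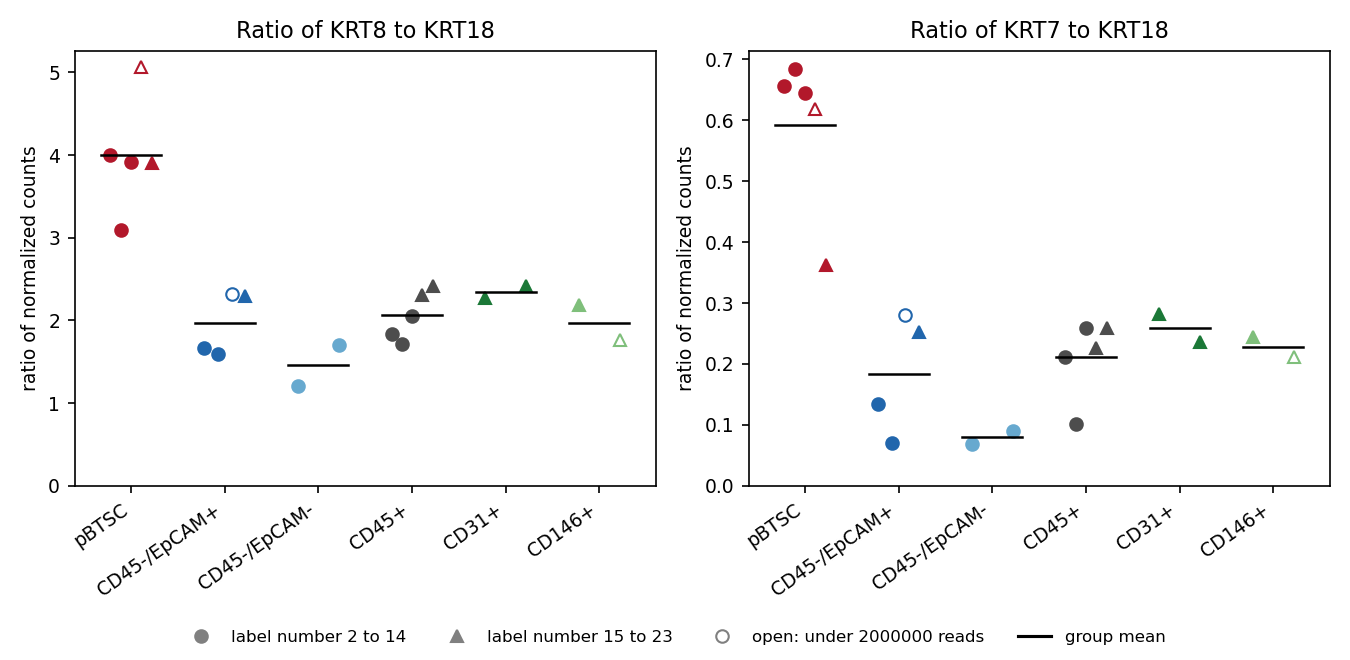
Ratio of normalized counts of KRT8 to KRT18 (left) and of KRT7 to KRT18 (right) in each library by sort, on linear axes that start at 0. Circles are libraries labelled 2 to 14, triangles those labelled 15 to 23, open symbols are shallow libraries and bars are group means. pBTSC libraries sit at 3.10 to 5.07 (left) and 0.362 to 0.684 (right), above all liver libraries, whose highest values are 2.41 and 0.282.

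KRT7, the type II keratin of bile ducts, was called higher in pBTSCs against CD45-/EpCAM- cells and against no other sort. It was 2081 in S2, 1065 in S7, 984 in S11, 855 in S15 and 440 in S20. S2, S7 and S11 lay above the liver maximum of 954, S15 within the liver range and S20 in its lower part.

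CD45+ cells had 954 normalized counts of KRT7 in S3, 873 in S8, 681 in S12, 564 in S18 and 744 in S23. CD45-/EpCAM+ cells had 704 in S4, 462 in S9, 467 in S13 and 676 in S19. The gate on EpCAM did not bring more KRT7 than the gate on CD45, since the CD45+ mean was the higher. It was 425 in S5 and 162 in S14 (CD45-/EpCAM-), 710 in S16 and 695 in S21 (CD31+), and 553 in S17 and 738 in S22 (CD146+). The order of the means was pBTSC, CD45+, CD31+, CD146+, CD45-/EpCAM+ and CD45-/EpCAM-, and only the last 2 did not overlap. That last step, a log2 difference of 1.105, did not pass the threshold (adjusted p = 0.150, limma).

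KRT7 was called higher in pBTSCs against CD45-/EpCAM- cells, with a log2 fold change of 1.87 (SE 0.43, adjusted p = 0.00187, limma). Without S14 it was 1.18 and no longer called (adjusted p = 0.0730). The CD45-/EpCAM- libraries also held the most of 3 erythroid genes (190000 and 868000 summed normalized counts, against at most 43600 in the other liver libraries and 29200 to 128000 in pBTSCs), and the part of this in the KRT7 values was not tested. Against the other groups KRT7 was not called, with 0.76 (adjusted p = 0.0893) against CD45-/EpCAM+ cells, 0.36 (adjusted p = 0.434) against CD45+ cells, 0.45 (adjusted p = 0.565) against CD31+ cells and 0.59 (adjusted p = 0.337) against CD146+ cells.

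Split by label number, the KRT7 difference from CD45-/EpCAM+ cells was 1.28 (adjusted p = 0.0270) within labels 2 to 14 and -0.14 (adjusted p = 0.909) within labels 15 to 23. The difference from CD45+ cells was 0.65 (adjusted p = 0.240) in the first range and -0.08 (adjusted p = 0.921) in the second. In the first range every pBTSC library exceeded every liver library, and in the second the pBTSC library S15 lay above and S20 below all 7 liver libraries (553 to 744). The test of the change itself, the interaction of tissue and number range, gave a log2 value of 1.41 (SE 0.59, unadjusted p = 0.0278, adjusted p = 0.199, limma) and so was not called. Within pBTSCs alone, labels 2 to 11 exceeded labels 15 and 20 by 1.08 (SE 0.40, unadjusted p = 0.0332, adjusted p = 0.235). Neither fit was called at this number of libraries. The second range holds 2 pBTSC libraries. The interaction was 1.89 (adjusted p = 0.283) without S15, which was shallow, and 0.934 (adjusted p = 0.558) without S20.

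The ratio of KRT7 to KRT18, which was chosen after the absence of a KRT19 row was seen and is given without a test, was 0.656 in S2, 0.684 in S7, 0.645 in S11, 0.619 in S15 and 0.362 in S20. In the liver it ranged from 0.0692 to 0.282 with a median of 0.226. The pBTSC libraries therefore lay above all liver libraries in this ratio in both number ranges, S20 least so.

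The counts of members called are read against the share of all tested genes that was called. KRT20 was the 1 of 4 members called against CD45-/EpCAM+ cells, where 25.1% of genes were called. KRT20 and KRT7 were called against CD45-/EpCAM- cells (36.6% of genes), and KRT20 and KRT18, in opposite directions, against CD45+ cells (20.6%). KRT20 alone was called against CD31+ cells (14.4%) and against CD146+ cells (22.2%, or 10.1% without the shallow libraries). With 4 members, a count of 1 or 2 is not far from these backgrounds. KRT20 enters these counts through its pBTSC values alone, which let it pass the filter. These 5 comparisons share the pBTSC libraries. No member was called between CD45-/EpCAM+ and CD45-/EpCAM- cells (2.8% of genes called), between the number ranges of pBTSCs (1.77%), between those of the liver libraries (3.78%, with 3 members tested, since KRT20 was too low) or in the interaction (2.47%). Between CD45-/EpCAM+ and CD45+ cells limma called 0% of genes, that is 0 of 15576, and 214 had an unadjusted p under 0.05, none of them a member. That is less than a share of 0.05 of all genes, which chance alone would give. The cause was not tested, and the lack of calls does not show that these sorts are alike.

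Of other keratins, 34 had a row, 9 of them at 0 in every library, and 9 were high enough to be tested. Only KRT14, KRT80 and KRT10 reached 100 normalized counts in any library. Against CD45-/EpCAM+ cells KRT14, a type I keratin of basal cells, rose by a log2 fold change of 1.23 (adjusted p = 0.00306) and KRT23, the type I neighbour of KRT20, by 3.20 (adjusted p = 0.00148), while KRT24 fell by 2.45 (adjusted p = 0.00931) on the log2 scale. Without the shallow libraries these changes were smaller, though still called, at 1.12 (adjusted p = 0.0258), 2.22 (adjusted p = 0.000704) and -1.78 (adjusted p = 0.0388, limma). The other 6 were not called, among them KRT80 with 0.06 and KRT4, which was 6.09 to 68.3 in pBTSCs (2.34, adjusted p = 0.0527) and was called with libraries rescaled to the same total or upper quartile, but was 1.56 (adjusted p = 0.177) without the shallow libraries. The median log2 fold change of the 9 was 0.39, against 0.08 over all genes tested. Of all genes tested, 25.1% were called in this comparison, so the count for other keratins is near that background. The row named KRT14 held 2575 to 8812 normalized counts in pBTSCs and 712 to 2988 in the liver, whereas KRT5, its usual type II partner, was at 0 in 12 of 20 libraries and exceeded 3 reads in 1. No gene is named KRT14 in the RefSeq table used here, and how reads were shared among similar keratin genes could not be checked, so the identity of that row is uncertain.

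Most of the other intermediate filament genes listed, which act in other cell types or, for LMNA, in the nucleus, were higher in pBTSCs. Of 9 such genes 8 were called higher in pBTSCs than in CD45-/EpCAM+ cells, with a median log2 fold change of 2.53 against 0.08 over all genes, and NES was not called (0.50). VIM, the filament of mesenchymal cells, was 41258 to 56535 in pBTSCs and 5721 to 27800 in the liver (log2 fold change of 2.04, adjusted p = 3.28e-05). DES, the filament of muscle, differed by 2.53 (adjusted p = 0.000181), GFAP, known from glia and stellate cells, by 3.40 (adjusted p = 0.000409) and LMNA, a filament of the nuclear envelope, by 1.51 (adjusted p = 3.36e-05). SYNM, which encodes synemin, differed by 1.94 (adjusted p = 0.000478) and PRPH, a neuronal filament, by 2.99 (adjusted p = 0.00294). The neuronal NEFL was 26.7 to 299 in pBTSCs and at most 2.31 in the liver, and NEFM was 13.4 to 101 and at most 0.727. NEFL and NEFM passed the filter through pBTSC libraries alone. Only a higher call was therefore open to them, in every count of these filament genes. The counts were 9 of 9 against CD45-/EpCAM- cells, 8 against CD45+, 6 against CD31+ and 7 against CD146+ cells. Markers of stellate cells and fibroblasts moved with them, with 5 of 6 called higher against CD45-/EpCAM+ cells (4 without the shallow libraries) and a sum of 312000 to 1390000 normalized counts in pBTSCs against 25200 to 148000 in the liver, as did 4 of 4 tested smooth muscle genes (DES belongs to both lists). The part of these cell types in the filament values was not tested. Of other markers tested, 2 of 6 endothelial genes were called higher and 2 lower, 2 of 6 blood cell genes lower, and 1 of 3 mesothelial genes higher and 1 lower against CD45-/EpCAM+ cells. With 25.1% of all genes called there, counts from lists this short say little about those cell types.

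Keratin filaments are anchored at desmosomes and by plakins. Of 10 such genes tested, PLEC, the linker plectin, was called higher against CD45-/EpCAM+ cells (1.34, adjusted p = 0.000655), and the plakin PPL (-1.40, adjusted p = 0.000969) and the desmosomal plakophilin PKP2 (-1.04, adjusted p = 0.00131) were called lower. The other 7 were not called, among them DSP with -0.54 and JUP with 0.05, the core linkers of the desmosome. With 25.1% of all genes called in this comparison, the count for the anchors is near the background. DSG2 had -0.75, PKP3 0.87, EVPL 0.45, EPPK1 0.70 and DST 0.68. DSP was 2693 to 3265 in pBTSCs and 2494 to 5413 in the liver. The call of PKP2 was lost when libraries were rescaled to the same total (-0.74) or the same upper quartile (-0.95), and DSG2, a desmosomal cadherin, was called lower without the shallow libraries (-1.18, adjusted p = 0.00625).

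Of 11 epithelial transcription and splicing factors tested, KLF5 (1.5, adjusted p = 0.00296), OVOL1 (2.88, adjusted p = 0.00367) and the splicing regulator ESRP1 (1.64, adjusted p = 0.00808) were called higher in pBTSCs than in CD45-/EpCAM+ cells. ESRP2, the paralogue of ESRP1, was called lower (-3.12, adjusted p = 5.75e-06). It was 178 to 329 in pBTSCs and 692 to 4139 in the liver, so ESRP1 and ESRP2 moved in opposite directions. TP63, a factor of basal epithelium, was also called lower (-2.27, adjusted p = 0.00352). GRHL2, ELF3 and EHF, which act in simple epithelia, were not called, with -0.50, 0.29 and 0.36, nor were GRHL3 (-1.85, adjusted p = 0.106) and OVOL2 (-0.29). GRHL1 and CDX1 were too low to be tested. Across all genes tested, 25.1% were called in this comparison. CDX2, the intestinal factor, was 2.88 to 41.5 in pBTSCs and at most 10.7 in the liver (1.65, adjusted p = 0.0913), and was called when libraries were rescaled to the same total (1.94, adjusted p = 0.0438). It was not called with the same upper quartile (1.73, adjusted p = 0.0742) or without the shallow libraries, where it was 0.95 (adjusted p = 0.241).

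**Figure D4:**
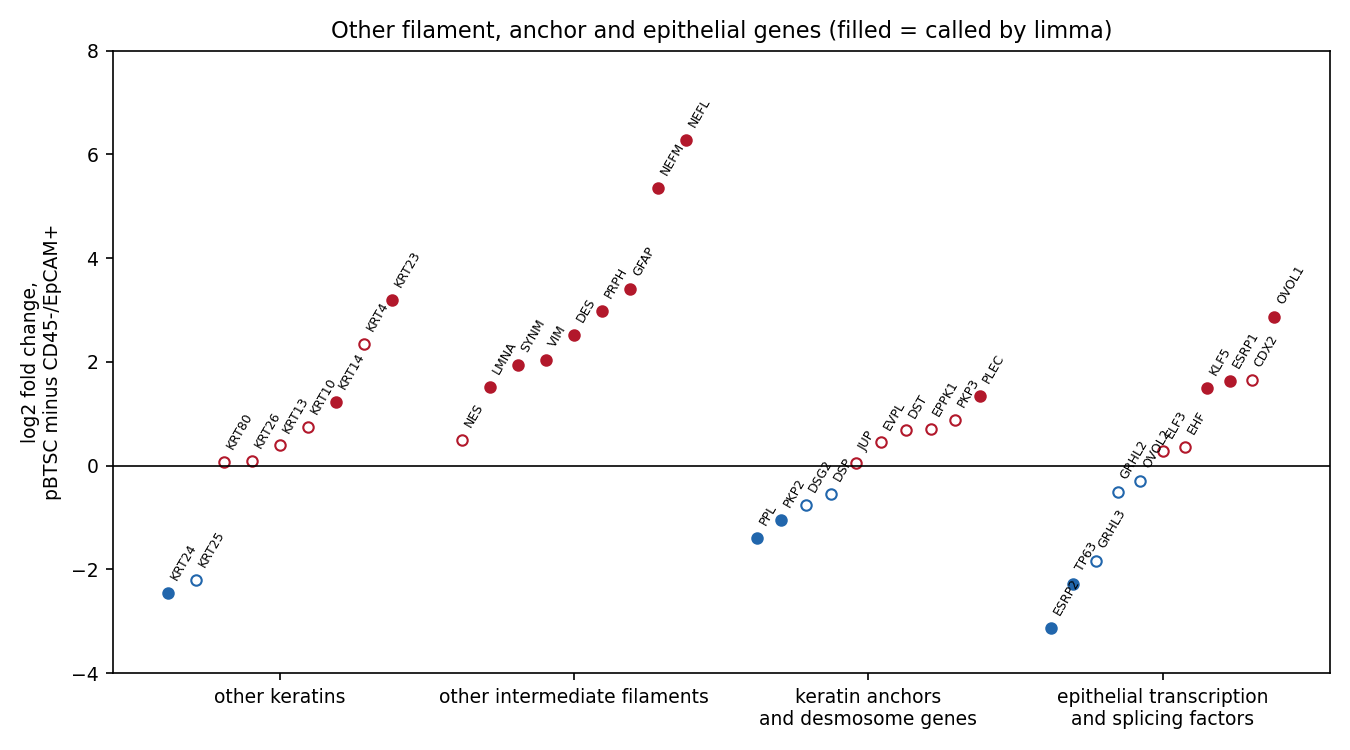
Log2 fold change of pBTSCs minus CD45-/EpCAM+ cells (limma) for the tested genes of 4 lists, each point 1 gene, red above and blue below 0, filled where called. Of the other intermediate filaments 8 of 9 are filled and above 0, whereas the other keratins (2 up, 1 down), the anchors (1 up, 2 down) and the epithelial factors (3 up, 2 down) are split. In this comparison 25.1% of all tested genes were called. NEFL and NEFM passed the filter through pBTSC libraries alone.

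The genes whose log2 levels were most like those of each member were sought among 13224 named genes over the 20 libraries by Pearson correlation, as a description. For KRT7 they were EHF (0.89), VILL (0.88), RAP1GAP (0.87), ANXA13 (0.86) and CCL28 (0.86), and within the 15 liver libraries these 5 kept correlations of 0.82 to 0.92. For KRT8 they were EPCAM (0.83), SLC1A1 (0.83), ANXA4 (0.83), EIF1AX (0.82) and VIL1 (0.80), the first of them a sorting gene. For KRT18 they were BEX4 (0.90), UNC5CL (0.90), BAIAP2L1 (0.89), TFG (0.89) and HSD17B7 (0.89).

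For KRT20 they were ASTN1 (0.98), NTM (0.98), SLC9C1 (0.97), FOXF2 (0.97) and POF1B (0.97). The gap between pBTSCs and liver enters these values, and within the liver, where KRT20 was near 0, they were 0.59 to 0.72. Between members, KRT7 and KRT8 had a correlation of 0.60 over 20 libraries and KRT7 and KRT18 of 0.10.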

How the data were processed

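Poly(A) RNA was sequenced by the study from stranded mRNA libraries. Normalized counts (a scaled signal, 0 or above) were deposited by the authors in 1 table, made per the labels with STAR, Salmon and DESeq2, whose versions, genome build and annotation are not given in the sources used here. Low values (under 20 reads) lay near, but not at, whole reads, so no count model was used. The share within 0.05 of a whole number of reads was 56.2% (S22) to 81.7% (S2). Depth was estimated as each library's total divided by the value of 1 read. Floors cover counting error only, whereas the limma intervals cover the spread between libraries.

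Libraries were grouped by the labelled cell type. log2(normalized count + 1) was tested with limma 3.58.1 (R 4.3.3, trend) over all genes with at least 10 normalized counts in 2 libraries, with 6 groups in 1 fit. Ratios were tested by exact permutation (scipy 1.17.1, Python 3.11.15, numpy 2.4.6, pandas 2.3.3) and matplotlib 3.10.9 drew the figures. The limma scripts were checked on simulated data with 1 fixed log2 noise for all genes, so genes that vary more were not covered. For CD146+ cells, which include the shallow S22, false calls were limited in that check only without the shallow libraries. The closest libraries of 1 group differed by 1.42 times counting noise. Members and gene lists were chosen with earlier results of these data known. Named by rule are the members, the sorting genes, the other filaments, anchors and epithelial factors listed, other keratins called against CD45-/EpCAM+ cells and the 5 genes most like each member. Marker lists are given by counts or sums, and other genes (KRT4 among them) were named after their values were seen. DSC2 and KLF4 had no row by those names. A list of bile duct genes is not reported here. Sequences were not used here.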

Additional observations from a re-analysis of the deposited data

Results flagged for a closer look

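Of 18 groups of values tested for a library far from the rest, 4 were singled out by Dixon's criterion at the 95% level, where chance alone singles out about 1 in 20. S2 had 12706 normalized counts of KRT8, against at most 7004 in the other pBTSC libraries. S2 also had 3171 normalized counts of KRT18, against at most 1558 in the others. Its KRT7 was the highest of all 20 libraries too, while its ratios of KRT8 to KRT18 and of KRT7 to KRT18 lay among those of the other pBTSC libraries. S20 had the lowest log2 ratio of KRT7 to KRT18 of the pBTSCs, -1.46, a ratio of 0.362. S8 had the lowest of the CD45+ cells, -3.31, a ratio of 0.101, and the most KRT18 of any library. The cause was not tested for any of these.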

How the results depend on the processing

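KRT20 kept its call in all 5 comparisons under every limma alternative run there. These were pseudocounts of 0.1 and 10, other scalings, filters, variance models and weights, number ranges and omitted libraries. An exact permutation test of KRT20 was run only against CD45+ (p = 0.00794) and CD45-/EpCAM+ cells (p = 0.0159). In both cases this was the smallest p that these libraries allow. The call of KRT18 against CD45+ cells was lost, leaving 1 member called, when libraries were rescaled to the same total (-0.92, adjusted p = 0.0739) or upper quartile (-1.098), without a filter, without trend, with array weights (-0.99), without the shallow libraries (-1.104) and within labels 2 to 14 (-1.25). Leaving out 1 replicate gave 1 to 2 members there, and 1 to 2 against CD45-/EpCAM+ cells. Against those cells 2 members were called after rescaling to the same total (KRT7, 1.07), without the shallow libraries (KRT18) and within labels 2 to 14 (KRT7), and 3 with array weights (KRT7 1.07, KRT18 -1.51). Within labels 15 to 23 KRT18 made 2 members against CD31+ and CD146+ cells. With array weights 1 member was called between the liver number ranges.

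Rescaling to the same total moved the median of all genes against CD45-/EpCAM+ cells from 0.08 to 0.39, and the calls from 2302 higher and 1603 lower to 3308 and 1237, so KRT7 stood 1.07 against a median of 0.39. Signs turned for KRT7 within labels 15 to 23 (-0.14, -0.078, -0.20 and -0.058 against CD45-/EpCAM+, CD45+, CD31+ and CD146+ cells). KRT8 turned against CD45-/EpCAM+ cells with the same total (0.24), the same upper quartile (0.034) and labels 2 to 14 (0.0097), against CD45+ cells with the same total (0.028), and against CD31+ cells with number range as a covariate (-0.17) and labels 15 to 23 (-0.15). With 1 replicate left out KRT8 ranged from -0.34 to 0.14, -0.18 to 1.101, -0.46 to 0.015 and -0.20 to 0.20 against CD45-/EpCAM+, CD45-/EpCAM-, CD45+ and CD31+ cells. The ratio of KRT8 to KRT18 kept its direction throughout, at 0.999 within labels 15 to 23, and against CD45-/EpCAM+ cells at 1.02 without the shallow libraries and 0.99 within labels 2 to 14, where the libraries left cannot reach p under 0.05. The causes were not tested.

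Without S15 the calls between pBTSC number ranges fell from 264 to 24. No paired analysis was possible because the labels do not tie libraries to animals. Where 1 library of a group remained, its spread was taken as that of the other groups. KRT20 in the liver lay at the limit of depth.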
